A study of Homo sapiens with 50 samples.

Results

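Genes of pericellular matrix proteolysis were followed in H1299, an established line from a human lung carcinoma, and in H1299*shRAD9*, the same line infected with a retroviral vector for a short hairpin RNA against *RAD9*, a DNA damage checkpoint gene. The members were the 10 genes *MMP1*, *MMP2*, *MMP3*, *MMP10*, *MMP14*, *TIMP1*, *TIMP2*, *TIMP3*, *PLAU* and *PLAUR*, taken by gene name from the probes that are not controls, which gave 11 of 34127 probes on each array. RNA was taken 4 h after dishes received 0 (CTL, sham) or 1 Gy of α particles. Cells in the path of the particles were the directly irradiated cells, and cells on the thicker Mylar film of the same dish, which the particles did not reach, were the bystander cells. Both were divided by the micronuclei scored in the bystander cells into bystander positive cells (BP) with their directly irradiated partners (DBP), and bystander negative cells (BN) with theirs (DBN). Each of the 10 groups of cell line and exposure held 5 arrays, 25 per line and 50 in all. All groups share the H1299 background, and 25 arrays carry the hairpin. The paper used 2 stable transfectants, and the labels do not give the transfectant of a sample, so a difference between the lines is a difference from those transfectants and has no hairpin control line.

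Matrix metalloproteinases (MMPs) are zinc enzymes that cut matrix proteins. *MMP1* encodes interstitial collagenase, *MMP2* gelatinase A, and *MMP3* and *MMP10* the stromelysins, all secreted as inactive precursors. *MMP14* encodes a membrane-anchored MMP that cuts collagen at the cell surface and activates pro-MMP2 in a complex with TIMP2. The TIMPs are tissue inhibitors of these enzymes. *PLAU* encodes urokinase, a serine protease that turns plasminogen into plasmin, and *PLAUR* its receptor at the cell surface. Expression of these genes in carcinoma cells is widely studied in relation to invasion.

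The arrays read each gene with probes of 60 bases. The first 30 bases of the probes for *MMP1*, *MMP14* and *PLAU*, the genes that the results turn on, are shown. The 2 *PLAU* probes read different stretches of the gene, and only 1 of them was called. Positions are those of the array annotation (hg19).
MMP1, probe A_23_P1691 at chr11:102660697-102660756, minus strand: acatgtgcagtcactggtgtcaccctggat
MMP14, probe A_24_P82106 at chr14:23315791-23315850, plus strand: ggactgccaagccaccctaagaccttggga
PLAU, probe A_23_P24104 at chr10:75677050-75677109, plus strand: ctgtgaccagcactgtctcagtttcacttt
PLAU, probe A_33_P3306146 at chr10:75674614-75674673, plus strand: tataacgatccccagtttggcacaagctgt

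The 250 bases before the annotated starts of *MMP14* and *PLAU*, the 2 called genes with an entry in the RefSeq promoter table (GRCh38.p14, 6 of 10 members matched), are shown for the motifs they hold. Capitals mark the GC box GGGCGG, a sequence that SP1 can bind, searched on both strands.
MMP14, chr14:22836335-22836584, plus strand: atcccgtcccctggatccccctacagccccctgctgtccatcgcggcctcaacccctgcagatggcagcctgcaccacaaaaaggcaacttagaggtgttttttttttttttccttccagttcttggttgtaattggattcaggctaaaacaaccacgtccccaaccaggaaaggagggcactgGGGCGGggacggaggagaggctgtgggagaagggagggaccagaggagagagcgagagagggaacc
PLAU, chr10:73910882-73911131, plus strand: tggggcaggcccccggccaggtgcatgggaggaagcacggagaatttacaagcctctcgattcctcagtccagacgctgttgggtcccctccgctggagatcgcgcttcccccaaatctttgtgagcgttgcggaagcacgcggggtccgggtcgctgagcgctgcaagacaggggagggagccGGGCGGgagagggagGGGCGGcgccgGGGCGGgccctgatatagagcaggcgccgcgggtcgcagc
The *MMP14* window held 1 GC box, 66 to 61 bases before the start, and the *PLAU* window held 3, at 66 to 61, 51 to 46 and 40 to 35 bases. The AP-1 motif TGANTCA, also searched on both strands and not overlapping the GC box, was in neither, nor was either motif in the window of a second *PLAU* start at chr10:73910360-73910609. Of 35116 windows of 250 bases, 42.6% held a GC box and 6.57% an AP-1 motif.

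Levels are log2 intensities minus the median of the array, so 0 is the median probe, and levels of different probes are not compared. The targeted gene, listed as *RAD9A*, was at 3.65 ± 0.19 (SD, n = 5) in H1299*shRAD9* CTL and 4.01 ± 0.13 (SD, n = 5) in H1299 CTL, 77.9% of the H1299 level (exact permutation test, 2-sided, p = 0.0159). This is an mRNA level. The paper reports a larger reduction of RAD9 protein in its transfectants, measured by Western blot. H1299 DBN replicate 1 stood apart, with 83.4% of its probes well above background against 55.4% to 73.1% on the other 49 arrays. The markers *VIM*, *KRT8*, *KRT18* and *CDH2* were well above background on all 50 arrays in each of 8 probes. Of 19 probes for haematopoietic, endothelial and fibroblast genes, 5 were well above background on all 50 arrays (2 for *PTPRC* and 1 each for *CD14*, *CD79A* and *CDH5*) and 7 on 0 arrays. Their part in the results was not tested. No slide held CTL arrays of both lines, so slide and line cannot be told apart in that comparison. H1299*shRAD9* CTL arrays were scanned on 3 days and H1299 CTL arrays on 2. No value for that comparison with scan day as a block is given here.

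Of the 11 member probes, 7 passed the criterion of being well above background in more than 75% of the arrays, for *MMP1*, *MMP14*, *TIMP1*, *TIMP2*, *PLAU* (2 probes) and *PLAUR*. The probes of *MMP2* (31 of 50 arrays well above background), *MMP10* (5), *TIMP3* (1) and *MMP3* (0) did not, and are described apart. Differences were fitted with limma over all 20079 features that passed, with Benjamini-Hochberg adjustment over all of them. A feature was called at p under 0.005 between the lines, or 0.006 between exposures, together with a false discovery rate under 10%. The numbers below follow the replicate number of the labels, 1 to 5.

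**Figure D1:**
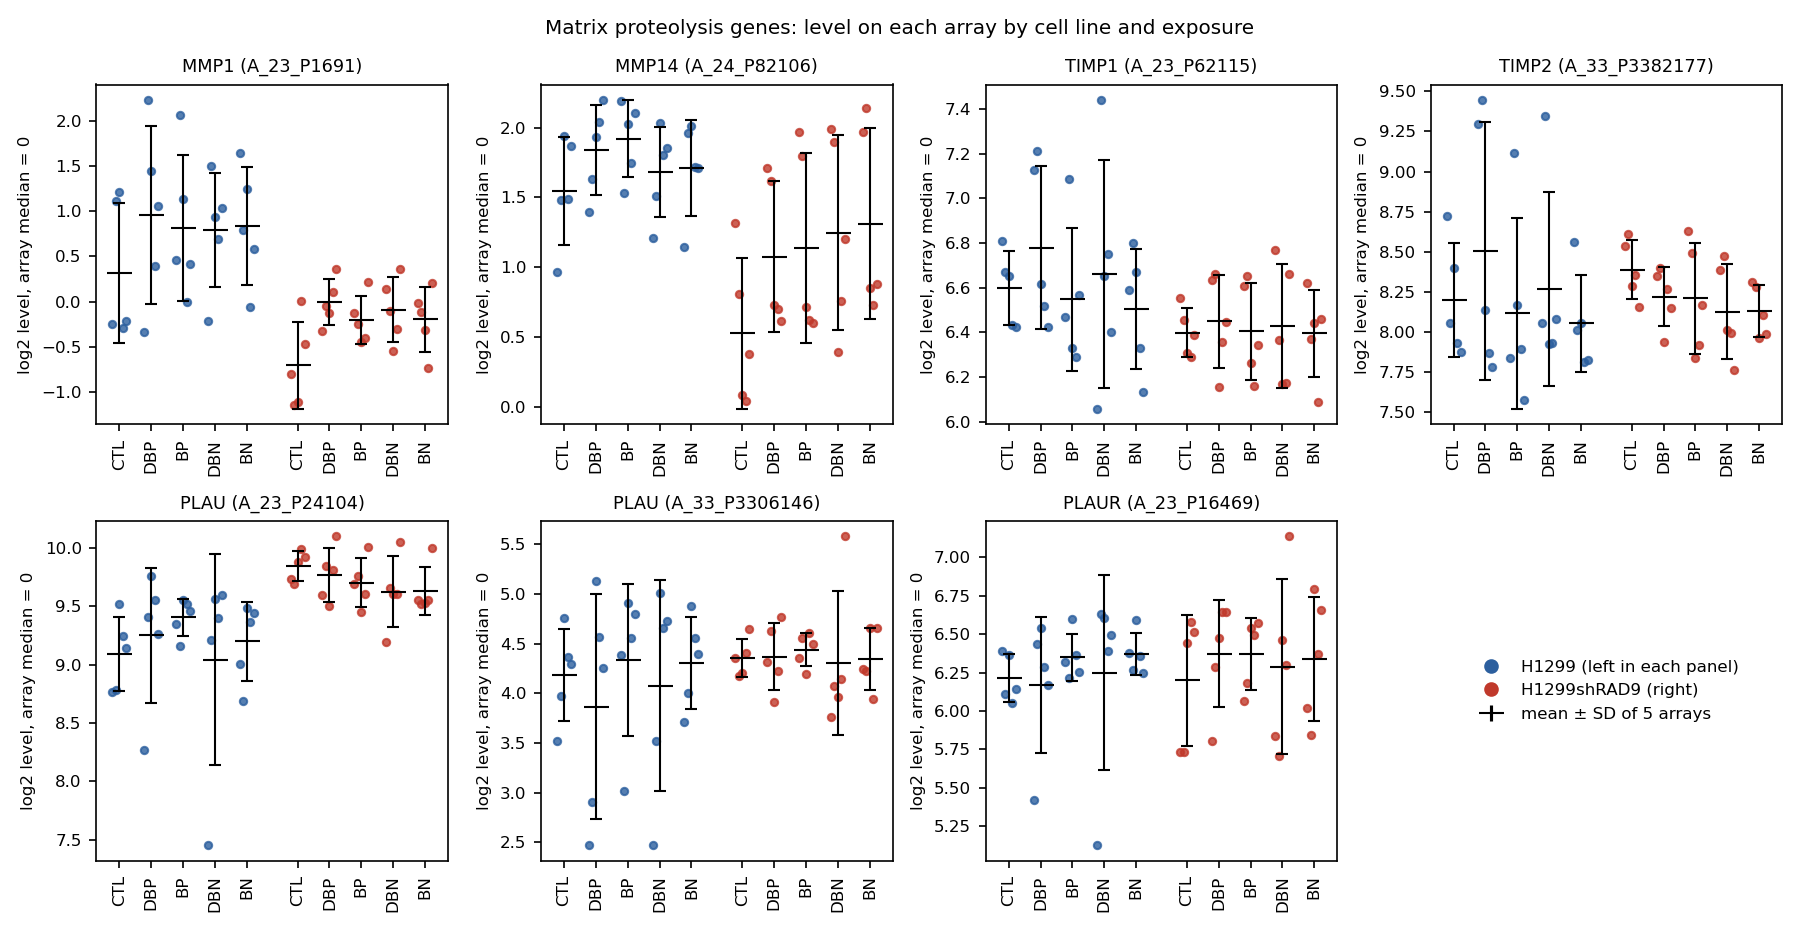
Level of the 7 member probes that passed the background criterion (log2 intensity, array median = 0) by exposure group, H1299 in blue on the left and H1299shRAD9 in red on the right of each panel. Points are arrays, and bars are the mean ± SD of 5. In MMP14 the H1299shRAD9 CTL group has the lowest mean, 0.52, and in PLAU probe A_23_P24104 it has the highest, 9.84.

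In unirradiated cells *MMP14* was lower and *PLAU* was higher in H1299*shRAD9* than in H1299. *MMP14* in H1299*shRAD9* CTL was at 1.32, 0.81, 0.08, 0.04 and 0.38, and in H1299 CTL at 0.96, 1.48, 1.94, 1.49 and 1.87. H1299*shRAD9* replicate 1 lay above the lowest H1299 array, and the other 4 lay below all 5. The difference of the means, 0.52 ± 0.54 against 1.55 ± 0.39 (SD, n = 5 each), was −1.02 on the log2 scale (2.03-fold, SE 0.257, 95% interval −1.58 to −0.46, limma adjusted p = 0.0235). *PLAU*, by probe A_23_P24104, was at 9.73, 9.69, 9.88, 9.99 and 9.92 in H1299*shRAD9* CTL, and at 8.76, 8.78, 9.52, 9.24 and 9.14 in H1299 CTL. The groups did not overlap, and the difference was 0.75 (1.68-fold, SE 0.151, 95% interval 0.42 to 1.08, limma adjusted p = 0.0103). The second *PLAU* probe was 0.17 higher (95% interval −0.27 to 0.61, limma adjusted p = 0.572), so the 2 probes had the same direction and only the first was called. These were 2 of 7 member probes, where 13.0% of all features were called in this comparison. The median difference over the 7 was −0.01, and over all features 0.06.

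*MMP1* showed the same direction as *MMP14* with a wider spread. It was at −0.80, −1.14, −1.12, 0.01 and −0.47 in H1299*shRAD9* CTL, and at −0.24, 1.11, 1.21, −0.30 and −0.21 in H1299 CTL. Replicates 2 and 3 of H1299 were high, its other 3 arrays lay near the H1299*shRAD9* replicates 4 and 5, and the groups overlapped. The difference of −1.02 (2.03-fold, SE 0.345, 95% interval −1.77 to −0.27) was not called (limma adjusted p = 0.0637). *TIMP1* differed by −0.20 (95% interval −0.44 to 0.04), *TIMP2* by 0.19 (−0.18 to 0.56) and *PLAUR* by −0.01 (−0.42 to 0.39), none called.

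The *MMP14* call was lost without H1299*shRAD9* CTL replicate 3, 4 or 5 or H1299 CTL replicate 3 or 5 (differences −0.98 to −0.90), with the replicate number as a block (limma adjusted p = 0.0699), and with the 5′ to 3′ index of the arrays as a covariate (−0.67, limma adjusted p = 0.258). The index sets the probe nearest the 5′ end of a gene against the probe nearest its 3′ end, as a median difference over 3469 genes, and had a mean of −0.0914 in H1299*shRAD9* CTL and 0.00279 in H1299 CTL. The *PLAU* call was lost under quantile normalization alone (0.58, limma adjusted p = 0.0495, with p over the threshold).

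Over all 5 exposures *MMP1* was 0.98 lower on the log2 scale in H1299*shRAD9* (difference −0.98, 1.98-fold, SE 0.157, limma adjusted p = 1.2e-06), *MMP14* was at a difference of −0.68 (1.60-fold, SE 0.136, adjusted p = 5.2e-05), and *PLAU* probe A_23_P24104 was at a difference of 0.52 (1.43-fold, SE 0.109, adjusted p = 0.000117). These 3 of 7 probes were called where 40.3% of all features were, and the median over all features was 0.13. The *MMP14* difference did not have the same sign in all replicate numbers. In replicates 1 and 2 the *MMP14* median was higher in H1299*shRAD9* (1.85) than in H1299 (1.49). In replicates 3 to 5 it was lower, at 0.70 against 1.93. These sets were chosen after the values were seen and are not tested. Arrays of one replicate number were alike across exposures, so a mean per replicate number over the 5 exposures was also fitted, with 5 values per line. *MMP1* was then still called (limma adjusted p = 0.018), and *MMP14* (adjusted p = 0.0716) and *PLAU* (adjusted p = 0.0559) were not. With slide as a block, *PLAU* was called at 0.93 (limma adjusted p = 0.0293), while *MMP14* was at −0.26 (adjusted p = 0.601) and *MMP1* at −0.60 (adjusted p = 0.334). The second *PLAU* probe was then at 0.91 (95% interval 0.21 to 1.62) and was not called. The values with scan day as a block were 0.84 for *PLAU*, −0.17 for *MMP14* and −0.42 for *MMP1*.

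**Figure D2:**
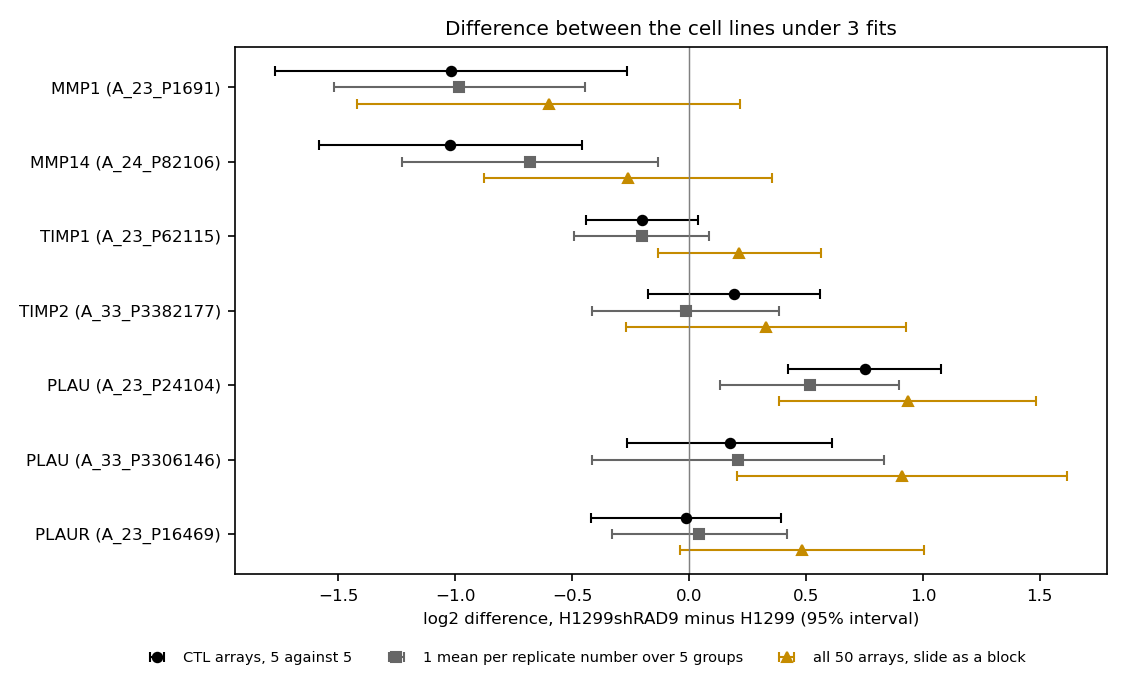
Log2 difference between the cell lines (H1299shRAD9 minus H1299, horizontal axis) with its 95% interval for the 7 member probes under 3 fits. MMP1 and MMP14 lie below 0 and PLAU probe A_23_P24104 above 0 in each. With slide as a block the intervals of MMP1 and MMP14 include 0.

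The order of the means over the 10 groups separated the lines in *MMP14*, *MMP1*, *TIMP1* and the first *PLAU* probe. It did not in *TIMP2*, *PLAUR* and the second *PLAU* probe. In *TIMP1* the gap between the lowest H1299 mean and the highest H1299*shRAD9* mean was 0.06, below the pooled SD of 0.24. For *MMP14* the order ran from H1299 BP (1.92), DBP (1.84), BN (1.71), DBN (1.68) and CTL (1.55) to H1299*shRAD9* BN (1.31), DBN (1.25), BP (1.14), DBP (1.07) and CTL (0.52). The gap below H1299*shRAD9* DBP was larger than the pooled SD of its neighbours, and no other gap was. For *MMP1* the order was H1299 DBP (0.96), BN (0.84), BP (0.82), DBN (0.79) and CTL (0.31), then H1299*shRAD9* DBP (−0.01), DBN (−0.09), BN (−0.20), BP (−0.20) and CTL (−0.70). Again the gap above H1299*shRAD9* CTL alone exceeded the pooled SD. In *PLAU* probe A_23_P24104 the 5 H1299*shRAD9* means, 9.62 to 9.84, lay above the 5 H1299 means, 9.04 to 9.41, and no neighbours differed by more than the pooled SD.

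After α particle exposure, *MMP14* rose in directly irradiated H1299*shRAD9* cells of both kinds and in bystander positive cells, in 5 of 5 pairs each. It was at 1.71, 1.62, 0.73, 0.70 and 0.61 in DBP, and at 1.97, 1.80, 0.71, 0.62 and 0.60 in BP. In DBN it was at 1.99, 1.90, 0.39, 0.76 and 1.20, and in BN at 1.97, 2.14, 0.85, 0.73 and 0.88. Each array lay above the CTL array of its own number, while the groups overlapped because replicates 1 and 2 were high in every group. Paired by replicate number, the rise was 0.55 in DBP (1.46-fold, SE 0.104, limma adjusted p = 0.0791), 0.61 in BP (1.53-fold, SE 0.114, adjusted p = 0.0538) and 0.72 in DBN (1.65-fold, SE 0.118, adjusted p = 0.0495). BN had the largest difference of the 4, 0.79 (1.73-fold, SE 0.124, 95% interval 0.49 to 1.08), and missed the threshold (limma adjusted p = 0.169).

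*MMP1*, the collagenase, was called higher in DBP, near the threshold. It was at −0.33, −0.04, −0.13, 0.11 and 0.36 there, each above the CTL array of its number, and the groups overlapped. The difference was 0.70 (1.62-fold, SE 0.147, 95% interval 0.36 to 1.04, limma adjusted p = 0.0982). This call held in 5 of 20 alternative fits, and the *MMP14* call in DBP in 11 of 20. In BP (−0.13, −0.24, −0.44, −0.41 and 0.21), DBN (0.14, −0.10, −0.55, −0.30 and 0.37) and BN (−0.01, −0.11, −0.32, −0.74 and 0.21), 4 of 5 arrays lay above their CTL array, and replicate 4 lay below it in each. The differences were 0.50 (limma adjusted p = 0.313), 0.62 (adjusted p = 0.188) and 0.51 (adjusted p = 0.423), none called. Without replicate 4 the DBN difference was 0.85 and was called (limma adjusted p = 0.0921).

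Thus 2 of 7 member probes were called in DBP, where 1.29% of all features were, 1 of 7 in BP (1.61%), 1 of 7 in DBN (2.80%) and 0 of 7 in BN (0.0299%). In BN 2 of 7 had a limma p under 0.05, as had 2704 of all 20079 features, and the random-variance test also called 0. The medians over the 7 were 0.05, 0.08, 0.03 and 0.00, and over all features 0.03, 0.02, −0.01 and 0.00. All 4 comparisons share the same 5 CTL arrays.

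**Figure D3:**
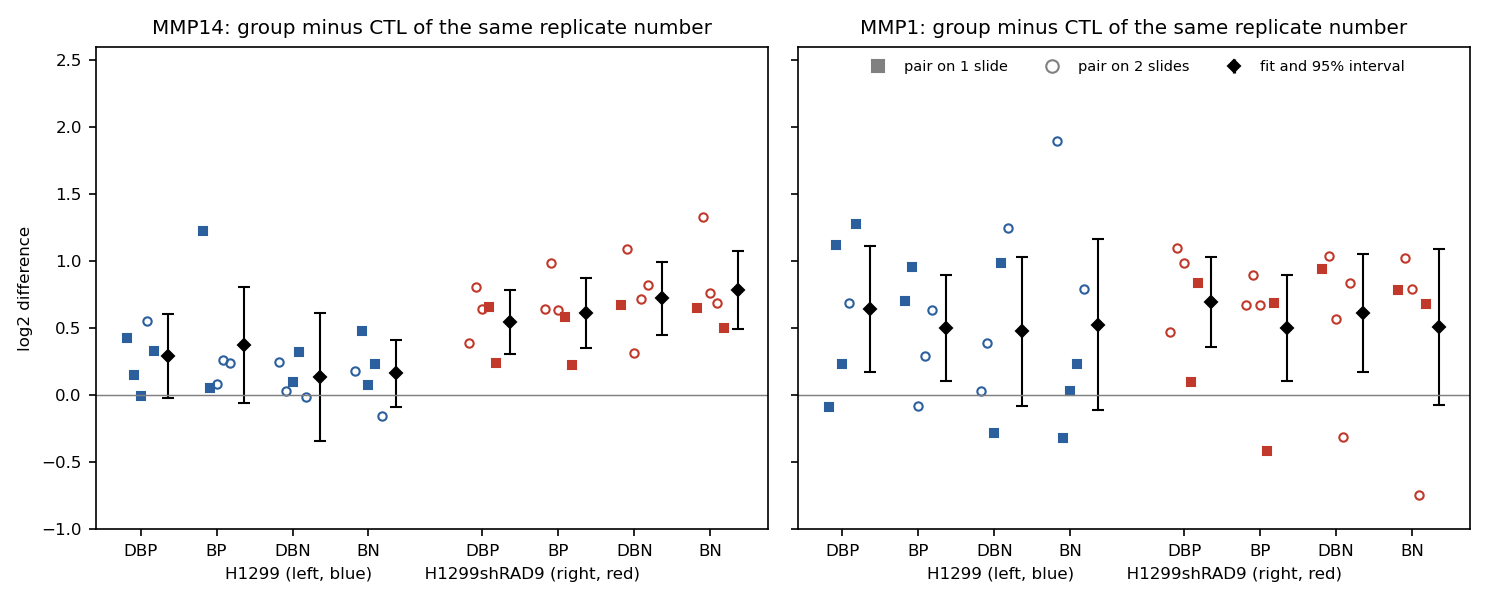
Log2 difference of each exposed array from the CTL array of the same line and replicate number, for MMP14 and MMP1. Filled squares are pairs on 1 slide, open circles pairs on 2 slides, and diamonds the fitted difference with its 95% interval. In H1299shRAD9 all 20 MMP14 pairs lie above 0, between 0.23 and 1.33.

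The 5′ to 3′ index moved with exposure. In H1299*shRAD9* CTL it was between −0.125 and −0.0669, below every exposed H1299*shRAD9* array, whose values ran from −0.0583 to 0.116. Index and exposure therefore cannot be told apart in these pairs, and a fit with the index as a covariate cannot decide between them. With the index as a covariate of the pairs, the *MMP14* difference was 0.47 for DBP (limma adjusted p = 0.918), 0.47 for BP (adjusted p = 0.404), 0.94 for DBN (adjusted p = 0.462) and 0.65 for BN (adjusted p = 0.335), and that of *MMP1* for DBP was 0.49 (adjusted p = 0.918), none called. Pairs on 1 slide (2, 2, 1 and 2 of the 5 for DBP, BP, DBN and BN) gave mean *MMP14* differences of 0.45, 0.40, 0.67 and 0.58. The *MMP14* calls were lost in DBP without replicate 2, 3, 4 or 5 (0.48 to 0.63), in BP without any one replicate (0.52 to 0.71), and in DBN without replicate 1, 2, 3 or 4 (0.63 to 0.83), and the *MMP1* call in DBP was lost without replicate 2, 3 or 5 (0.60 to 0.66).

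The kinds of exposed cell were also compared with each other in H1299*shRAD9*. *MMP14* differed by −0.07 between DBP and BP (95% interval −0.27 to 0.14), −0.06 between DBN and BN (−0.35 to 0.22), −0.17 between DBP and DBN (−0.91 to 0.56) and −0.17 between BP and BN (−0.98 to 0.63). *MMP1* was 0.20 higher in DBP than BP (−0.06 to 0.45) and 0.11 higher in DBN than BN (−0.15 to 0.36). None of these passed the test, 0 of 7 member probes were called in any of the 4 comparisons by limma or the random-variance test, and 0 of 7 had a limma p under 0.05. The share of all features called was 0.0797% for DBP against BP and for DBN against BN, and 0% for the other 2. Of all 20079 features, 830, 447, 95 and 73 had a limma p under 0.05 in the 4 comparisons, in the order given for *MMP14*. DBP against DBN and BP against BN come from different dishes and were fitted unpaired. Their same-numbered arrays had mean correlations of 0.423 and 0.384, so the spread between replicate numbers widens these intervals. The lack of calls there does not show that the groups are alike.

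In H1299 no member passed the test. *MMP14* was at 1.40, 1.63, 1.93, 2.04 and 2.20 in DBP, and at 2.19, 1.53, 2.02, 1.75 and 2.11 in BP. It was at 1.21, 1.51, 2.04, 1.80 and 1.85 in DBN, and at 1.14, 1.96, 2.01, 1.72 and 1.71 in BN. The exposed array was above its CTL array in 4, 5, 4 and 4 of 5 pairs in that order, and all exposures overlapped CTL, with differences of 0.29, 0.37, 0.14 and 0.16 in DBP, BP, DBN and BN (limma adjusted p = 0.795 or higher). *MMP1* in H1299 reached 2.23 in DBP replicate 2 and was as low as −0.33 in DBP replicate 1. Its differences were 0.65 (limma adjusted p = 0.795), 0.50, 0.48 and 0.53, each with 4 of 5 arrays above their CTL array. The share of all features called was 0.0349% for DBP, 0% for BP, 0.00996% for DBN and 0% for BN. In that order 1, 1, 0 and 0 of the 7 member probes had a limma p under 0.05 (random-variance test, 0 called). Of all 20079 features, 1118, 1139, 659 and 687 had a limma p under 0.05.

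Whether the change differed between the lines was tested as an interaction, and 0 of 7 member probes were called in any of the 4 (0%, 0%, 0.0149% and 0% of all features for DBP, BP, DBN and BN; random-variance test, 0 of 7). The *MMP14* change was estimated as larger in H1299*shRAD9* by 0.26 for DBP (95% interval −0.10 to 0.61), 0.24 for BP (−0.26 to 0.74), 0.59 for DBN (0.13 to 1.05, limma adjusted p = 0.439) and 0.62 for BN (0.26 to 0.99, adjusted p = 0.631). For *MMP1* the difference in change was 0.05 for DBP (−0.55 to 0.65), 0.00 for BP (−0.57 to 0.57), 0.14 for DBN (−0.56 to 0.84) and −0.02 for BN (−0.94 to 0.90).

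The inhibitors and the urokinase pair had no called change with exposure in either line. *TIMP1*, at 6.06 to 7.44 over all arrays, differed from CTL by 0.05, 0.01, 0.03 and −0.00 in H1299*shRAD9* DBP, BP, DBN and BN. *TIMP2*, the inhibitor that also bridges pro-MMP2 to MMP14, was at 8.53, 8.61, 8.29, 8.35 and 8.16 in H1299*shRAD9* CTL, at 8.39, 8.47, 8.01, 7.99 and 7.77 in DBN and at 8.31, 8.28, 7.96, 8.11 and 7.99 in BN. Each DBN and BN array lay below the CTL array of its number, and the differences of −0.26 (limma adjusted p = 0.21) and −0.26 (adjusted p = 0.209) were not called. *TIMP2* also lay below CTL in 5 of 5 pairs in H1299*shRAD9* DBP (difference −0.17) and in H1299 BN (−0.14), neither called. *PLAUR*, the urokinase receptor, differed by 0.17, 0.17, 0.09 and 0.14 in H1299*shRAD9*, with 5, 4, 3 and 4 of 5 pairs higher. *PLAU* probe A_23_P24104 differed by −0.07, −0.14, −0.22 and −0.21 in H1299*shRAD9*, and by 0.16, 0.32, −0.05 and 0.11 in H1299. The interaction for BP, −0.46 (limma adjusted p = 0.748), was not called.

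*MMP2*, gelatinase A, differed widely between replicate numbers. In H1299*shRAD9* the 10 arrays of replicates 1 and 2 were at 1.16 to 1.79, all well above background, and the 15 arrays of replicates 3 to 5 were at −2.90 to −1.74, with 3 well above background. In H1299 the same numbers gave −1.65 to 0.42 (10 of 10 well above background) and −2.98 to −1.47 (8 of 15). The ranges of the H1299*shRAD9* sets did not overlap, and those of H1299 overlapped. *MMP14* in H1299*shRAD9* was at 0.81 to 2.14 in replicates 1 and 2 and 0.04 to 1.20 in replicates 3 to 5, and *PLAUR* at 5.70 to 6.29 and 6.30 to 7.14. In H1299 *MMP14* ran the other way, with medians of 1.49 in replicates 1 and 2 and 1.93 in replicates 3 to 5. Fitted without the background filter, *MMP2* in H1299*shRAD9* was lower than the paired CTL array in 4 of 5 pairs in DBP (difference −0.41, 95% interval −0.77 to −0.04, limma adjusted p = 0.245) and in 5 of 5 in DBN (−0.29, −0.54 to −0.05, adjusted p = 0.375), and lower in DBP than BP in 5 of 5 (−0.38, −0.74 to −0.02, adjusted p = 0.206), none called. The sets by replicate number were chosen after the values were seen and are not tested. The difference within H1299*shRAD9* falls along replicate number, and its cause was not tested.

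**Figure D4:**
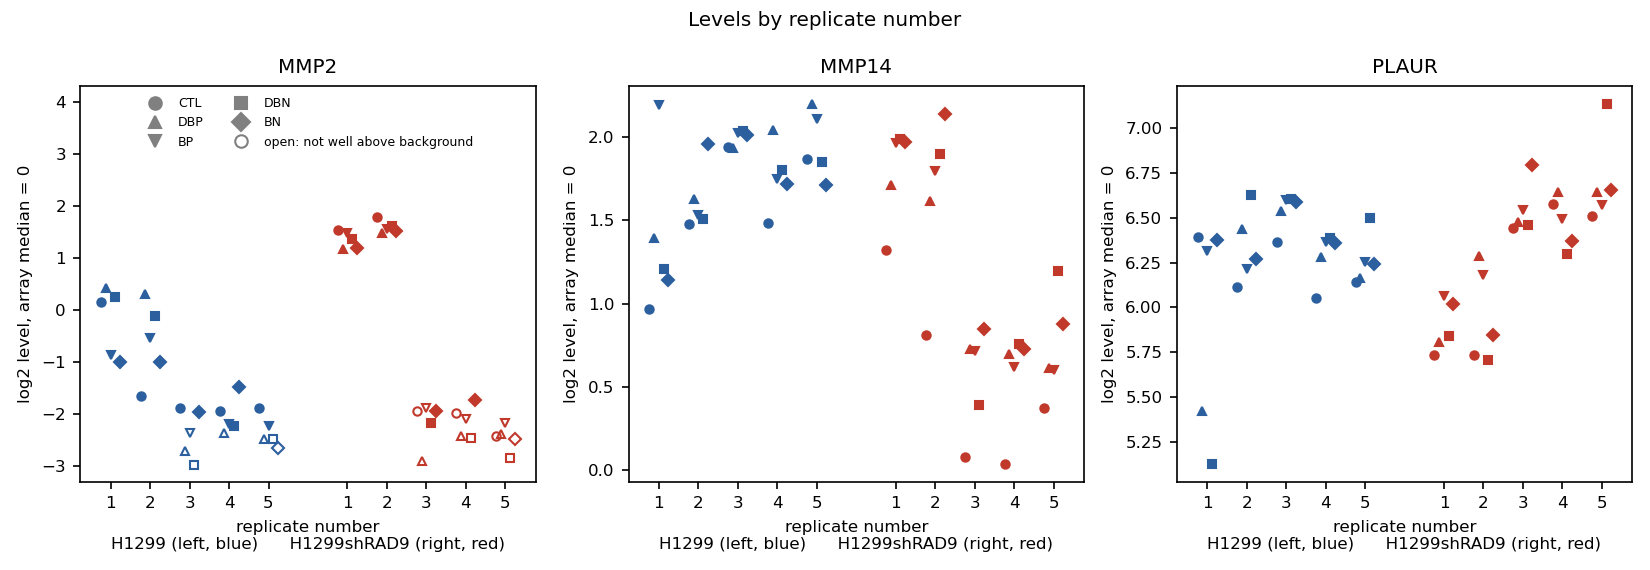
Level of MMP2, MMP14 and PLAUR (log2 intensity, array median = 0) by replicate number, H1299 in blue and H1299shRAD9 in red, with the exposure shown by the symbol. Open symbols are arrays not well above background. MMP2 in H1299shRAD9 lies between 1.16 and 1.79 in replicates 1 and 2 and between −2.90 and −1.74 in replicates 3 to 5.

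The stromelysins and *TIMP3* were near background. *MMP3* was well above background on 0 of 50 arrays, *MMP10* on 5, all H1299 (1 of the 50 arrays gave it no value), and *TIMP3*, the matrix-bound inhibitor, on 1. The *MMP10* arrays were CTL replicate 3 (−1.90), BP replicate 3 (−1.77), BN replicate 3 (−1.98), and DBN replicates 4 (−2.43) and 5 (−2.02). The *TIMP3* array was H1299 DBN replicate 1 (−0.61). Of all arrays it also had the lowest *PLAU* by probe A_23_P24104 (7.45) and the lowest *PLAUR* (5.13).

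The genes whose level followed *MMP14* most closely over the 50 arrays, among 18103 features, were *CD82*, a tetraspanin (Pearson r = 0.905), *GBAP1*, a pseudogene (0.901), and *WNK4*, a kinase (0.888). Within H1299*shRAD9* alone the values were 0.91, 0.892 and 0.911, and within H1299 0.733, 0.758 and 0.742. For *MMP1* they were *FTL*, a ferritin subunit (0.844), *PRKACB*, a protein kinase A subunit (0.839), and *RWDD2A* (0.821), with 0.584, 0.1 and 0.534 within H1299*shRAD9* and 0.763, 0.843 and 0.747 within H1299. These are descriptions over arrays that share cell line and replicate number.

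Other genes of the pathway changed between the lines in both directions. In CTL cells, 1 of 25 tested matrix proteases was higher and 2 lower in H1299*shRAD9* (*MMP19* 0.48, *MMP24* −0.42, and the lysosomal protease *CTSD* −0.40, log2 differences, all called by limma), where 13.0% of all features were called. Of 20 inhibitors, activators and receptors, 1 was higher and 2 lower. *CD82* was at 3.89 ± 0.56 against 4.89 ± 0.27 (SD, n = 5 each), and *SERPINE2*, an inhibitor of serine proteases, differed by −0.86 (limma adjusted p = 0.0129). Of 26 matrix substrates, 3 were higher and 2 lower, among them *THBS1* (thrombospondin, 1.43), the laminin chains *LAMB3* (0.89) and *LAMA3* (−1.80) and the collagen chain *COL6A2* (−1.11). Of 16 transcription factors known for these promoters, 1 was lower, *JUND* (−0.72). In 1 called substrate gene another probe had the opposite sign. The list medians were −0.10, −0.03, 0.08 and 0.03, beside 0.06 over all features. Over all exposures the counts higher and lower were 2 and 7, 3 and 5, 8 and 7, and 5 and 1 in the same 4 lists, where 40.3% of all features were called, with *LAMA3* at −1.87 and the matrix glycoprotein *TNC* at −1.70.

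After exposure of H1299*shRAD9*, 1 gene of these 4 lists (25, 20, 26 and 16 tested genes) passed the test, the immediate early factor *EGR1*. It rose by 0.85 in BP (1.80-fold, SE 0.143, limma adjusted p = 0.0372), 0.84 in DBN (1.79-fold, SE 0.144, adjusted p = 0.0549) and 0.97 in BN (1.96-fold, SE 0.0763, adjusted p = 0.0695). None of the lists had a called gene in H1299*shRAD9* DBP or in any H1299 comparison with CTL. The share of all features called in H1299*shRAD9* was 1.29% for DBP, 2.80% for DBN, 1.61% for BP and 0.0299% for BN. With lists of this size, 1 called gene or 0 cannot be told from the shares for DBP, DBN and BP. For BN, *EGR1* was among 6 features called. The medians of the factor list were 0.14, 0.08, 0.06 and 0.09 in H1299*shRAD9* DBP, BP, DBN and BN.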

How the data were processed

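RNA of 50 samples was labelled with Cy3 and hybridized to Agilent 4X44K v2 arrays, 1 colour. Per the file headers, Feature Extraction subtracted a fitted background and gave the deposited processed intensities. Here log2 of the intensity was taken, the array median over 34127 probes subtracted (the authors' scaling), outlier spots left out and spots of a probe averaged. Features were kept if well above background in more than 75% of arrays (20079). The methods' further criterion of 1.3-fold variation (12186) was an alternative. The authors' processed log2 values, deposited for 9502 features (9476 matched to probes here), were also an alternative.

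limma 3.58.1 (R 4.3.3) was fitted on all kept features, unpaired between lines, for DBP against DBN and for BP against BN. Replicate number was a block against CTL, for direct against bystander cells and in the interactions. The methods name paired samples, matched by dish and control. Deviations of same-numbered arrays had a mean correlation with CTL of 0.465 to 0.541 (H1299*shRAD9*, every pair over 0.1) and, for H1299, 0.387 (DBP), 0.445 (BN), 0.162 (BP) and 0.2 (DBN), the last 2 with 3 of 5 pairs over 0.1. No depth exists for arrays; 5 per group limits precision. P-values of fits with replicate number as a block rest on the spread of differences between same-numbered arrays, and the others on the spread between arrays. The fit over all exposures takes the 25 arrays per line as independent. Code was tested on simulated data. Members and lists were chosen with earlier results of these data known. All members are named, called genes among the 4 largest per list and comparison (some are not reported here), and 3 most correlated genes for *MMP1* and *MMP14*. Alternatives were 75th percentile, quantile and normexp (offset 50) scaling, other filters, the random-variance test, all groups in one fit, slide or scan day as a block, the 5′ to 3′ index, and each replicate left out. Slide and scan day as fixed blocks, replicates 3 to 5, means per replicate number and the index of pairs were added after the data were seen.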

Additional observations from a re-analysis of the deposited data

Results flagged for a closer look

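Of 85 sets of 5 arrays tested, 10 held a sample whose gap to the nearest other array exceeded 0.71 of the range of its group, where chance gives about 5%. Sets with no array well above background were left out, so those of *MMP10* and *TIMP3* could enter through the high array itself, and the number found cannot be read against that share. In H1299 CTL these were *MMP2* in replicate 1 (0.16) and *MMP10* in replicate 3 (−1.90), and *MMP10* also in H1299 BP replicate 3 (−1.77). H1299 DBN replicate 1, the array with 83.4% of probes well above background, was far from its group in *TIMP3* (−0.61), *PLAU* probe A_23_P24104 (7.45) and *PLAUR* (5.13), and H1299 DBN replicate 2 in *TIMP2* (9.34). *PLAU* probe A_23_P24104 was high in H1299*shRAD9* BN replicate 5 (10.00). The second *PLAU* probe was high in H1299*shRAD9* DBN replicate 5 (5.58) and low in H1299 BP replicate 2 (3.02).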

How the results depend on the processing

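Of 369 counts of called member probes recomputed under alternatives, 51 differed by more than 1.5 times from the count reported, and of 440 alternatives to the 22 member differences with an unadjusted limma p under 0.05, 4 changed sign. Of 2086 alternatives to the other 104 member differences, many of them near 0, 288 changed sign. The causes were not tested. Between the CTL groups 1 probe was called in place of 2 under quantile normalization, with the replicate block and with the 5′ to 3′ index, and leaving out 1 array gave 1 to 2. The replicate block (*MMP14* limma adjusted p = 0.0699 between CTL groups) changed no other call in unpaired comparisons of the members, and without it the paired adjusted p of *MMP14* was 0.831, 0.968 and 0.611 in DBP, BP and DBN and that of *MMP1* in DBP 0.439. Over all exposures 1 in place of 3 was called with slide or scan day as a block and with means per replicate number. In H1299*shRAD9* DBP 1 in place of 2 was called under 75th percentile, quantile or normexp scaling, the 1.3-fold criterion, the authors' values, the random-variance test and slide as a random block. In each of these *MMP1* was the call lost and *MMP14* was kept. In DBP 0 were called without a background filter, without the replicate block, with the index, with slide as a fixed block and with replicates 3 to 5 (leaving out 1 replicate, 0 to 2). In BP 0 in place of 1 was called without a background filter, with the authors' values, without the replicate block, with the index, with slide or scan day as a fixed block and with replicates 3 to 5 (leaving out 1 replicate, 0 to 0). In DBN 0 was called without a background filter, without the replicate block, with the index, with slide or scan day as a fixed block and with replicates 3 to 5 (leaving out 1 replicate, 0 to 1), and 2 with all groups in one fit, which called 1 in BN in place of 0. Without a background filter 2 were called in DBP against BP in place of 0, *MMP3* and *TIMP3*, both below background. *TIMP1* over all exposures, −0.20, was 0.21 with slide and 0.22 with scan day as a block, *TIMP2* in H1299*shRAD9* DBN was 0.071 with the index of the pairs, and the *PLAU* interaction for BN was 0.68 under normexp. Low signal limits *MMP2*, *MMP3*, *MMP10* and *TIMP3*, which were fitted only without the background filter.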
